A study of Mus musculus with 18 samples.

Results

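Transcript levels in ventricular myocardium of leptin-deficient ob/ob mice were compared with those of wild type mice of the same C57Bl/6J strain, averaging over 3 ob/ob groups that differed in treatment. The comparison took in all 18 arrays of the series, 14 from ob/ob hearts and 4 from wild type hearts, with 1 array per mouse. The ob/ob mice were 6 months old when the treatments began. For 1 month they then ate freely (ad libitum, n = 4), received leptin from osmotic mini-pumps (leptin treated, n = 5) or were held to the food intake of the leptin treated mice (calorie restricted, n = 5). The wild type mice (n = 4) are described as 6 months old on the sample labels and as 6 to 8 months old in the design text, and no pump or diet is given for them. Genotype therefore cannot be told apart from whatever else set the wild type mice apart, including any difference in age. All hearts were taken between 7 and 8 in the morning. The question was which transcripts differed between ob/ob and wild type ventricle when ob/ob mice of every treatment were pooled, and how far each difference held in the treated groups.

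Leptin is a hormone released by fat cells that lowers food intake and raises energy use through its receptor in the brain. The ob mutation destroys the leptin protein, and mice homozygous for it overeat, become obese and develop insulin resistance and fat storage in heart muscle. The working heart burns mainly fatty acids in its mitochondria, a programme driven by the nuclear receptor PPAR alpha, the estrogen-related receptors and their coactivator PGC-1 alpha, the product of Ppargc1a. Leptin supply corrects the hormone deficit, whereas restricted feeding lowers food intake and leaves the deficit in place.

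The values are MAS5 signals, linear probe set intensities that were scaled on every array to the same trimmed mean of 100.001. Differences are given as log2(signal + 5.13), where the added constant is the 20th percentile of all signals, so folds of dim genes are understated. In the main contrast each ob/ob group counted equally, and a difference is the mean of the 3 ob/ob groups minus wild type with the standard error (SE) of the limma fit. Genes were called where the p, adjusted by Benjamini and Hochberg's method over the 13359 genes tested, was under 0.05.

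The 18 arrays were similar in quality. The median signal lay between 22.3 and 31.8 on ob/ob arrays and between 23.1 and 29.1 on wild type arrays, and the ratio of 3' to 5' signal of Gapdh lay between 0.797 and 0.868 and between 0.802 and 0.819. The 12 ventricular cardiomyocyte markers were abundant in all groups, with the ventricular light chain Myl2 between 6368 and 10029. The Y-linked Eif2s3y read 181 to 357 on all 18 arrays. The atrial light chain Myl7 ranged from 2.52 to 3548 and was highest on calorie restricted replicates 2 and 3. Lep itself stayed near the constant, with group means of 4.11 in wild type and 5.34 to 8.06 in the ob/ob groups. Its signal in this tissue checks no genotype label.

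Across all genes tested, 95 of 13359 (0.711%) were called between pooled ob/ob and wild type ventricle, 42 higher in ob/ob (0.314%) and 53 lower (0.397%), and 1903 (14.2%) had an unadjusted p under 0.05. Most of these differences were small. Among the called genes 17 moved by more than 1 on the log2 scale and 37 by less than 0.5. Their size differed between the treatment groups. The calorie restricted group lay farthest from wild type for 83 of the 95 genes, the ad libitum group for 10 and the leptin treated group for 2, and the leptin treated group lay closest for 70. The median distance from wild type over the 95 genes was 0.88 in the calorie restricted group, 0.47 in the ad libitum group and 0.30 in the leptin treated group. The 95 genes were chosen by an average that includes the calorie restricted group, in which 93 of them were also called. These counts and medians are therefore partly set by that choice. All 3 groups moved the same way for 88 genes. For the other 7, all lower on average (H2-Aa, H2-Eb1, Aplnr, Rsad2, St8sia4, Mndal and AW112010), the leptin treated group was level with or above wild type. A call in the average thus does not by itself say that a gene differed in each group.

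**Figure D1:**
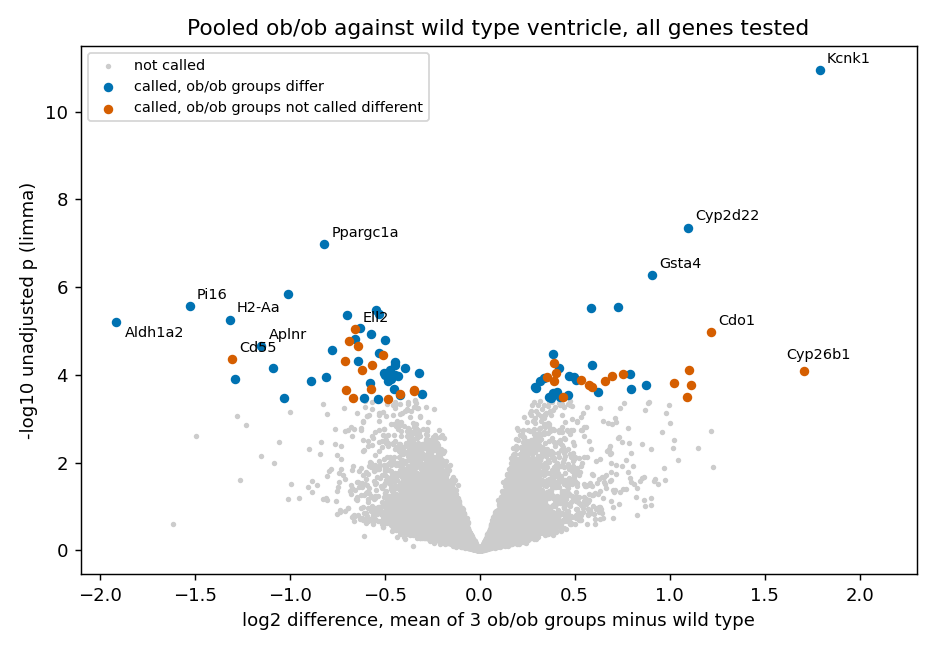
Each point is 1 of the 13359 genes tested, with the log2 difference (mean of the 3 ob/ob groups minus wild type) on the x axis and the negative log10 of the unadjusted limma p on the y axis. The 95 called genes are coloured by whether the ob/ob groups were also called different from each other (63 genes, blue) or not (32 genes, orange), and Kcnk1 stands at the upper right with a difference of 1.79.

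A moderated F test in the same limma fit asked whether the 3 ob/ob groups differed from each other, a test into which the wild type arrays do not enter as a group. It called 1602 of 13359 genes (12%), and 63 of the 95 called genes were among them. Of the 32 that were not, 17 were higher and 15 lower in ob/ob, and for 19 the unadjusted p of the F test was 0.05 or more. Failing this test does not show that the groups were alike. Nor is the count of 63 independent of the choice of the 95 genes, which were picked by an average over the same ob/ob arrays. Array by array, 42 of 13359 genes (0.314%) had all 14 ob/ob arrays on 1 side of all 4 wild type arrays, and 22 of the 95 called genes were among them, 13 higher and 9 lower. Of these 22, 13 were not called among the ob/ob groups.

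Set against the same wild type arrays, the ad libitum group had 40 called genes (0.299%), the calorie restricted group 1504 (11.3%) and the leptin treated group 1 (0.00749%), which was Kcnk1. These 3 comparisons share their controls. Of the 95 genes, 93 were called in the calorie restricted group, 20 in the ad libitum group and 1 in the leptin treated group, where 54 had an unadjusted p under 0.05. Between ob/ob groups, leptin treated against ad libitum ventricle had 86 called genes (0.644%), 11 of them among the 95, and calorie restricted against ad libitum ventricle 724 (5.42%), 41 of them among the 95. Without the calorie restricted group 4 genes were called, Kcnk1, Ppargc1a, Gsta4 and the amylase gene Amy1. Amy1 missed the threshold over all groups, with a difference of 0.74 (SE 0.17, limma adjusted p = 0.0560). When differences between ob/ob groups were left in the spread, by fitting 1 mean per genotype, Kcnk1 and Ell2 were called. The small wild type group weighed on the count, which was 25, 33, 71 and 29 when wild type replicate 1, 2, 3 or 4 was left out. In all 18 fits that left out 1 array, 16 genes stayed called: Kcnk1, Cyp2d22, Gsta4, Adra1b and Slc27a1 among the higher, and Ppargc1a, Nrep, Pi16, St8sia4, Lpar6, G0s2, H2-Aa, Aldh1a2, Rsad2, Ell2 and Mndal among the lower. Each of the others lost its call without at least 1 wild type array.

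Kcnk1, which encodes a potassium channel subunit of the tandem-pore family, showed the clearest difference. Its signal was 56.5, 45.2, 58.6 and 38.9 on the wild type arrays. The ad libitum arrays read 196, 252, 213 and 173, the calorie restricted arrays 277, 223, 246, 205 and 226, and the leptin treated arrays 127, 107, 127, 130 and 141. Every ob/ob array lay above every wild type array, and the leptin treated arrays lay between the wild type and the remaining ob/ob arrays without overlap. Pooled, Kcnk1 was 1.79 higher on the log2 scale (SE 0.11, limma adjusted p = 1.5e-07), or 3.46-fold. By group the difference was 1.96 under free feeding, 2.14 in calorie restricted and 1.27 in leptin treated ventricle. The leptin treated group was lower than the ad libitum group by a log2 difference of -0.69 (SE 0.13, limma adjusted p = 0.0199). The other probe set of the gene gave 2.24 for the pooled contrast.

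**Figure D2:**
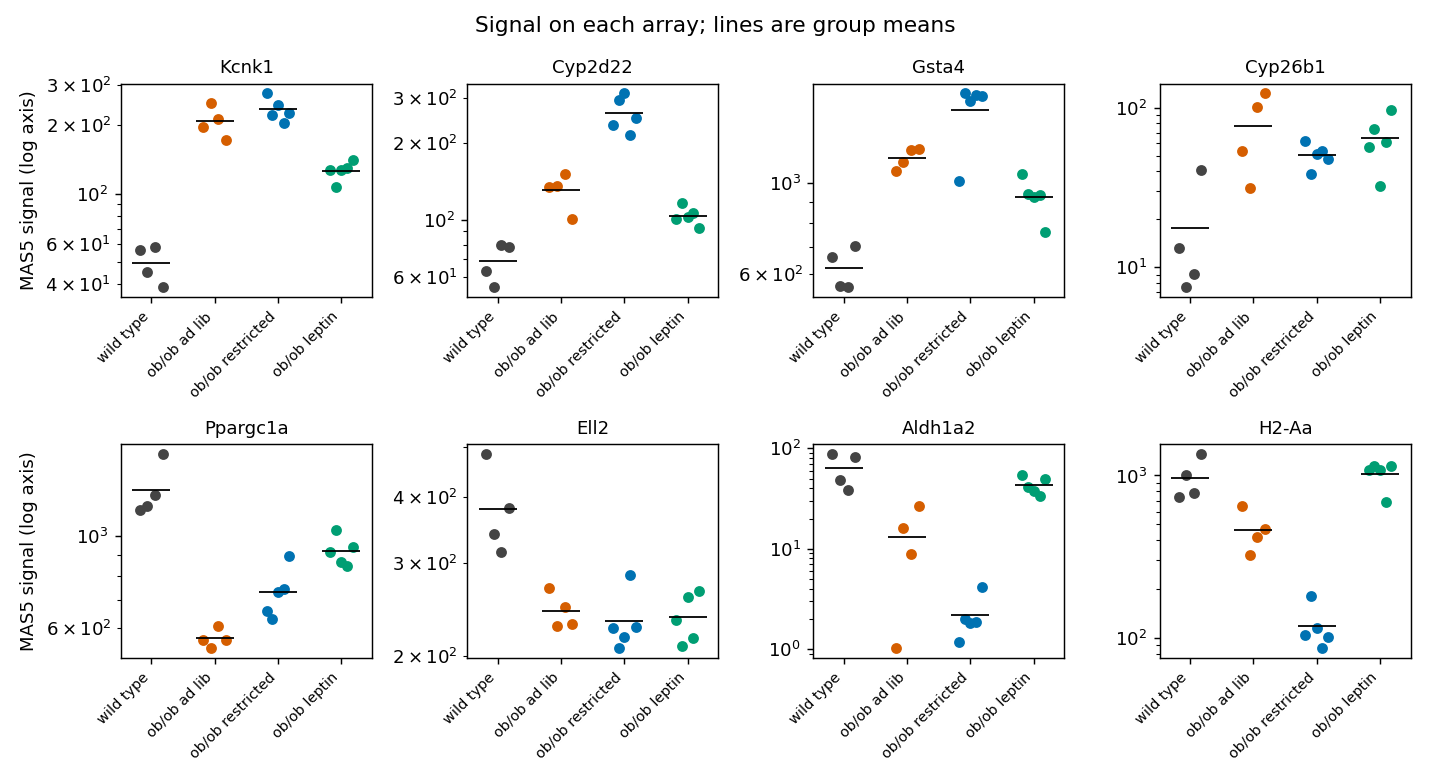
MAS5 signal (log y axis) on each of the 18 arrays for 8 genes, with 1 point per array and a line at each group's mean, grouped as wild type, ob/ob ad libitum, ob/ob calorie restricted and ob/ob leptin treated. Kcnk1, Cyp2d22 and Gsta4 are higher, and Ppargc1a and Ell2 lower, on all 14 ob/ob arrays than on any wild type array, whereas the leptin treated arrays of Aldh1a2 and H2-Aa overlap wild type.

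Kcnk1 belongs to a list of 19 tested potassium channel genes, of which 2 were called higher (beside 0.314% of all genes) and none lower, with a list median of 0.10 beside -0.01 over all genes tested. The other called member was Kcnh2, the pore subunit of the rapid delayed rectifier current, at 0.47 (SE 0.10, limma adjusted p = 0.0456). Kcnk3, a tandem-pore relative of Kcnk1, stood at 0.31 with an adjusted p of 0.0533 in the limma fit, which missed the threshold. In a list of 26 tested calcium and sodium channel and calcium handling genes, 2 were called, both higher (beside 0.314% of all genes). Cacng6, an accessory subunit of voltage-gated calcium channels, differed from wild type by 1.05 under free feeding, 0.80 in calorie restricted and 0.02 in leptin treated ventricle. Cacnb2, another accessory subunit, had 0.57, 0.42 and 0.33 in the same order. Adra1b, an adrenergic receptor that couples noradrenaline to contraction and growth, rose by 0.73 (SE 0.11, limma adjusted p = 0.00488). Its signals ran from 65.5 to 148 with a median of 96.2 on ob/ob arrays and from 49.6 to 67.9 on wild type arrays, and only leptin treated arrays overlapped wild type. Pth1r, the parathyroid hormone receptor, was 0.66 higher.

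Several of the strongest increases were in enzymes that modify foreign compounds or handle cysteine and glutathione. They span several enzyme families and were brought together after their values were seen, so no count over them is given. Cyp2d22, a cytochrome P450, read 63.0, 54.6, 79.6 and 78.4 on wild type arrays and 134, 135, 151 and 101 on ad libitum arrays. It read 235, 292, 312, 214 and 249 on calorie restricted arrays and 101, 116, 103, 106 and 92.6 on leptin treated arrays. No ob/ob array overlapped wild type, and the pooled difference was 1.10 (SE 0.12, limma adjusted p = 2.96e-04). Cyp2b10, a cytochrome P450 known for induction by drug-like compounds, was 1.11 higher (SE 0.23, adjusted p = 0.0336 in limma), at 1.16, 1.26 and 0.93 in ad libitum, calorie restricted and leptin treated ventricle. Gsta4, a glutathione transferase that conjugates reactive aldehydes from oxidised lipids, averaged 620 ± 71.5 (SD, n = 4) in wild type, 1154 ± 68.5 (n = 4) under free feeding, 1505 ± 275 (n = 5) in calorie restricted and 923 ± 104 (n = 5) in leptin treated ventricle. All 14 ob/ob arrays, from 762 to 1655, lay above the highest wild type array at 701. The pooled difference of Gsta4 was 0.91 (SE 0.12, limma adjusted p = 0.00180).

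Cdo1, the cysteine dioxygenase that starts the conversion of cysteine to taurine, was 1.22 higher (SE 0.20, adjusted p = 0.00883 in limma), and its ob/ob groups were not called different from each other. Its wild type arrays read 25.6 to 54.8 and its ob/ob arrays 50.1 to 176 with a median of 96.6, and 1 leptin treated array fell within the wild type range. The sulfotransferase Sult1a1 and the glycosyltransferase Ugt3a2 were 0.79 and 1.02 higher. Sult1a1 differed by 1.49 in calorie restricted and by 0.22 in leptin treated ventricle, whereas Ugt3a2, a dim gene at a mean of 10.6 in wild type, had 1.34 and 0.77. Oplah, an enzyme of the glutathione cycle, was 0.59 higher. In fixed lists, 2 of 25 tested cysteine, taurine and glutathione genes were called, both higher (Cdo1 and Gsta4), beside 0.314% of all genes. In an antioxidant list of 18 tested genes the 1 called, also higher (beside the same 0.314%), was the cytochrome P450 gene Cyp2d22. None of the other members of that list was called. The antioxidant enzyme Nqo1 stood at 0.37 with a limma adjusted p of 0.0880, and the glutathione transferase Gstm1 at 0.29 with 0.0988.

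Retinoic acid metabolism held the called genes with the largest decrease and the second largest increase. Retinoic acid, the active form of vitamin A, is made by retinaldehyde dehydrogenases and broken down by CYP26 enzymes. Aldh1a2, the retinaldehyde dehydrogenase, read 87.7, 48.2, 38.3 and 82.7 on wild type arrays and 54.1, 40.9, 38.0, 33.4 and 49.1 on leptin treated arrays. It read 1.03, 16.1, 8.77 and 26.7 on ad libitum arrays and between 1.18 and 4.15 on the calorie restricted arrays, all 5 of which lay below the added constant. The ad libitum and calorie restricted arrays were thus all below wild type, while the leptin treated arrays overlapped it. Pooled, Aldh1a2 fell by 1.91 on the log2 scale (SE 0.30, limma adjusted p = 0.00658), and leptin treated ventricle was above ad libitum ventricle by 1.62 (SE 0.35, limma adjusted p = 0.0425). Aldh1a2 also marks mesothelial and epicardial cells. Of 12 tested markers of those cells it was the 1 called (beside 0.711% of all genes), and the list median was -0.04. The summed signal of the markers ran from 1268 to 1675 on ob/ob and from 1330 to 1654 on wild type arrays.

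Cyp26b1, which breaks retinoic acid down, was 1.71 higher (SE 0.33, limma adjusted p = 0.0271), with 1.90, 1.49 and 1.74 in ad libitum, calorie restricted and leptin treated ventricle. The wild type arrays read 13.2, 7.52, 9.09 and 40.8, and the ob/ob arrays 31.4 to 123 with a median of 55.4. Wild type replicate 4 lay within the ob/ob range and the other wild type arrays below it. In the list of 14 tested retinoic acid genes these 2 were called, beside 0.711% of all genes, and the receptor genes Rarb, Rarg and Rxra had pooled differences of 0.07, 0.14 and 0.00.

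Ppargc1a, the coactivator of mitochondrial genes, was lower on every ob/ob array. It read 1152, 1181, 1250 and 1569 on wild type arrays. The ad libitum arrays read 564, 538, 607 and 561, the calorie restricted arrays 659, 631, 733, 745 and 893, and the leptin treated arrays 915, 1034, 866, 844 and 937. The groups stood in that order with little overlap, and the highest ob/ob array stayed under the lowest wild type array. The pooled difference was -0.82 (SE 0.09, limma adjusted p = 4.69e-04), made up of -1.17, -0.81 and -0.48. The step from ad libitum to leptin treated was 0.69 (SE 0.11, limma adjusted p = 0.00870), so the gene was higher under leptin than under free feeding and still under wild type on each array. Its other probe sets were lower as well. In the list of 20 tested genes of mitochondrial transcription control Ppargc1a was the 1 called gene, beside 0.711% of all genes. Ppara, the nuclear receptor for fatty acids, was at -0.46 with a limma adjusted p of 0.126, and Esrra at 0.07.

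Lower Ppargc1a was not accompanied by lower transcripts of the respiratory chain. Of 44 tested genes of oxidative phosphorylation, limma called none and 20 had an unadjusted p under 0.05, all 20 with higher values in ob/ob, beside 14.2% of all genes in either direction. All 44 had a positive difference, with a list median of 0.16 and a highest value of 0.32. That median depended on the scaling of the arrays and was 0.00 after quantile normalization. The medians of 12 ventricular cardiomyocyte markers and of 23 sarcomere genes went likewise from 0.22 and 0.19 to 0.01 and 0.01. With median centring the same 3 medians were 0.18, 0.24 and 0.20. Of 23 fatty acid oxidation genes limma called none, 13 had an unadjusted p under 0.05 (beside the same 14.2%), and the median was 0.18 (0.06 after quantile normalization). The list of PPAR alpha targets shares members with that list, among them Cpt1a, Acadl and Hadha, so the counts are not independent. Among 22 PPAR alpha targets none was called in limma and 15 had an unadjusted p under 0.05, beside 14.2%. Their median was 0.22 (0.09 after quantile normalization), at 0.10, 0.41 and 0.13 in ad libitum, calorie restricted and leptin treated ventricle. Cpt1a, which admits fatty acids to mitochondria, had 0.19, 0.87 and 0.21 in that order and a pooled adjusted p of 0.0945 in limma.

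Angptl4, Ucp3 and Pdk4 had values of opposite sign in the treatment groups and lay near wild type in the average. Angptl4, an inhibitor of lipoprotein lipase and a PPAR target, differed from wild type by -1.30 under free feeding, 1.17 in calorie restricted and -0.37 in leptin treated ventricle, and by -0.17 pooled. The mitochondrial carrier Ucp3 had -0.71, 1.10 and -0.01, and 0.13 pooled. Pdk4, which restrains glucose oxidation, had -0.39, 0.47 and -0.11, and -0.01 pooled. Acot1, a thioesterase for fatty acyl-CoA, had positive values, 0.02, 2.01 and 0.31 in that order and 0.78 pooled. None of these 4 was called in the pooled limma contrast, where their unadjusted p ranged from 0.0162 to 0.967. Slc27a1, a fatty acid transport protein, was called at 0.59 (SE 0.09, adjusted p = 0.00488 in limma), with 0.41, 1.20 and 0.15 by group. Other genes of fatty acid supply, Cd36, Lpl and Fabp3, stood at 0.24, 0.24 and 0.25 pooled and were not called. Their adjusted p in limma was 0.133, 0.272 and 0.159.

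Among 23 tested genes of lipid droplets and lipolysis 1 was called (beside 0.711% of all genes), G0s2, the inhibitor of the triglyceride lipase encoded by Pnpla2. G0s2 read 809, 732, 688 and 740 on wild type arrays, 449, 372, 390 and 431 on ad libitum arrays and 350, 279, 381, 315 and 390 on calorie restricted arrays. The leptin treated arrays, at 640, 808, 780, 534 and 630, overlapped wild type, and the other ob/ob arrays did not. Pooled G0s2 fell by 0.70 (SE 0.10, limma adjusted p = 0.00531). Pnpla2 was 0.82 higher in calorie restricted ventricle (limma adjusted p against wild type 6.02e-04) and at 0.00 in ad libitum ventricle. The droplet coat genes Plin2 and Plin5 stood at 0.15 and 0.33 pooled, with adjusted p of 0.584 and 0.146 in limma. Further called metabolic genes were small changes. Lias (lipoic acid synthesis), Gpt (alanine aminotransferase), Chkb (choline kinase), Lclat1 (cardiolipin acyl chain remodelling), Pex19 (peroxisome assembly) and Mtarc2 (a mitochondrial reductase) were 0.29 to 0.47 higher, and Slc19a2 (thiamine uptake), Gda (guanine deaminase) and Ugdh (UDP-glucose dehydrogenase) were lower by log2 differences of -0.64, -0.65 and -0.57.

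**Figure D3:**
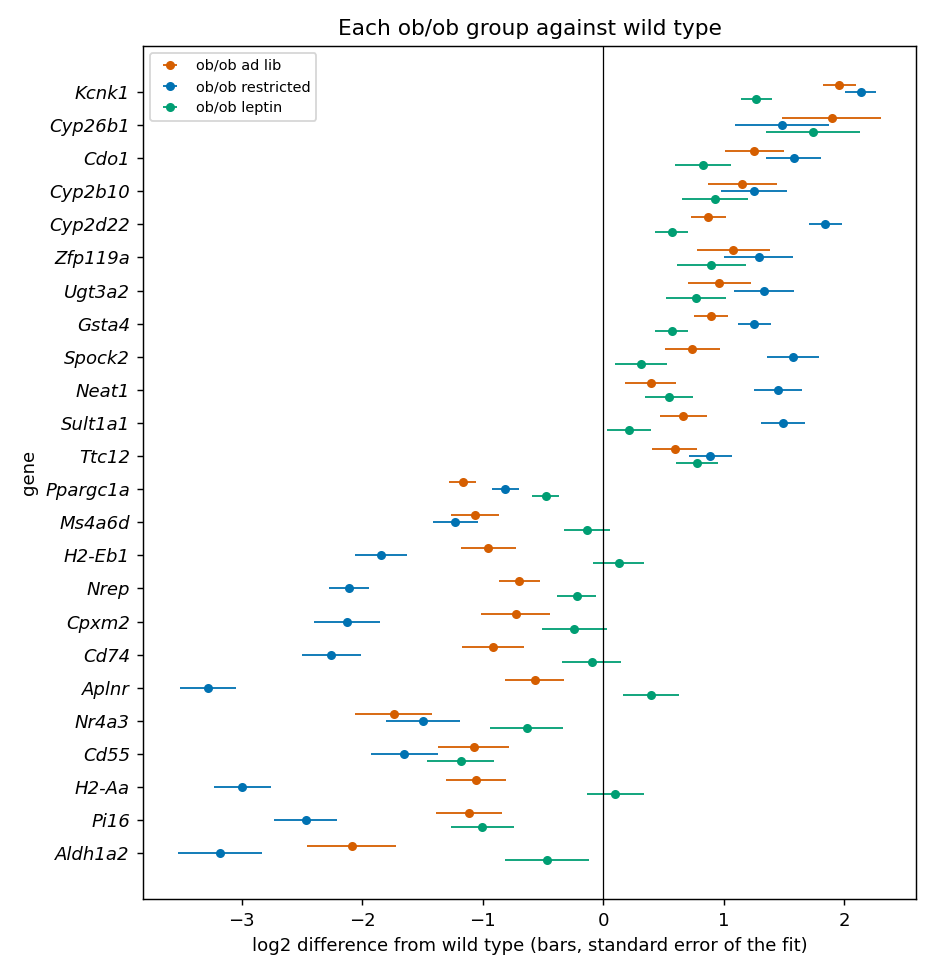
Log2 difference from wild type (x axis) in ob/ob ad libitum, calorie restricted and leptin treated ventricle, with bars of 1 standard error of the limma fit. Shown are the 12 called genes with the largest pooled increase and the 12 with the largest pooled decrease. Unnamed cDNA clones such as 2310009B15Rik were passed over. For Kcnk1, Cyp26b1, Cyp2b10 and Cd55 the 3 groups lie on the same side of 0 and within 1 log2 unit of each other, whereas for Aplnr they run from -3.28 to 0.40.

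Ell2 and Slc19a2 were lower by similar amounts in every ob/ob group. Ell2 encodes an elongation factor of RNA polymerase II. It read 484, 340, 315 and 381 on wild type arrays and 207 to 285 with a median of 229 on ob/ob arrays, with no overlap. Its differences were -0.62, -0.69 and -0.66 in ad libitum, calorie restricted and leptin treated ventricle (pooled SE 0.10, limma adjusted p = 0.00796, F test among ob/ob groups adjusted p = 0.913). Slc19a2, a thiamine transporter, had -0.69, -0.65 and -0.58, with wild type arrays at 162 to 232 and ob/ob arrays at 90.1 to 138. Cd55, which shields cells from complement, had differences of -1.07, -1.65 and -1.18, and its ob/ob arrays at 11.4 to 42.1 lay below the wild type arrays at 45.8 to 107. The remaining genes without overlap and without a call among ob/ob groups were Zfp617, Dut (which removes dUTP) and Tppp3 among the lower, at -0.42, -0.34 and -0.71. Among the higher they were Lclat1, Bcam (a laminin receptor), Zfp93, Spint2 (a protease inhibitor), Synpo (an actin-associated protein), Apold1 and Wdr34, at 0.35 to 0.70, Lclat1 having 0.39, 0.34 and 0.34 by group. The second probe set of Synpo gave -0.26. Dnajc9, Ndrg4 and the transcription factor Gata6 among the higher and Rilpl1 and Itgav among the lower also showed no overlap, and their ob/ob groups were called different from each other.

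Promoters of 4 lower genes of different roles are shown because cAMP-responsive transcription and class II gene control act through known short motifs. They are those of Ppargc1a (coactivator), Nr4a3 (an immediate early nuclear receptor), Ell2 (an elongation factor) and H2-Aa (an MHC class II chain). Each is the RefSeq sequence of GRCm38.p6 from 250 bases before to 50 bases after the gene's start, on the gene's strand. Capitals mark TGACG or its reverse complement CGTCA, the core of the cAMP response element, and in H2-Aa also the CCAAT box, read there as ATTGG. The intervals are chr5:51567676-51567975 (minus strand) for Ppargc1a, chr4:48045055-48045354 (plus strand) for Nr4a3, chr13:75707234-75707533 (plus strand) for Ell2 and chr17:34287774-34288073 (minus strand) for H2-Aa.
Ppargc1a: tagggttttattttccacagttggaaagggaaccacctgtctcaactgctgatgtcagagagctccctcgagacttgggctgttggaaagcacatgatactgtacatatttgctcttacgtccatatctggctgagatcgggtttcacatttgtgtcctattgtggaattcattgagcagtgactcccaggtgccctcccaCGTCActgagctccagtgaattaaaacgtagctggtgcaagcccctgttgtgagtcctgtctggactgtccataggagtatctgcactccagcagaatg
Nr4a3: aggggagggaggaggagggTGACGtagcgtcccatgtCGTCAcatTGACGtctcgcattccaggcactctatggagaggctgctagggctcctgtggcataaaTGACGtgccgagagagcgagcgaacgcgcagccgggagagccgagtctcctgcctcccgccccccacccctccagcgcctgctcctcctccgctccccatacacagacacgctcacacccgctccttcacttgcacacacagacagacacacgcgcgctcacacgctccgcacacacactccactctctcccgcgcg
Ell2: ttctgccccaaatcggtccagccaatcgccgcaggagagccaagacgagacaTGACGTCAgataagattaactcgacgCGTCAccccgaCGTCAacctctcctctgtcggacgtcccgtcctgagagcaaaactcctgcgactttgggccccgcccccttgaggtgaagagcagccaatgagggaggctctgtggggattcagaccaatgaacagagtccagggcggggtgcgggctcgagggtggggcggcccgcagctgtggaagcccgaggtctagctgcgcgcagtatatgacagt
H2-Aa: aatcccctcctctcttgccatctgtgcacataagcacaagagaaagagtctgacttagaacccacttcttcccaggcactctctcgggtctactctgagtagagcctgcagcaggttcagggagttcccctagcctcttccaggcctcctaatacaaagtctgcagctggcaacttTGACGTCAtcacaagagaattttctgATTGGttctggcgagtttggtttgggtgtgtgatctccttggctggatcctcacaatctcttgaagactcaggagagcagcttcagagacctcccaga
TGACG on either strand occurred 1 time in the Ppargc1a window, 4 times in Nr4a3, 4 times in Ell2 and 2 times in H2-Aa. The full palindrome TGACGTCA, which contains TGACG on both strands, was in the Ell2 and H2-Aa windows. TGACG was in 33.2% of the 10737 promoters of tested genes with a sequence, in 14 of 40 promoters of lower genes and in 12 of 32 of higher genes. TGACGTCA was in 3.23% of all, in 2 of 40 and in 0 of 32, and CCAAT on either strand in 42.2%, 17 of 40 and 15 of 32. A match is a run of letters and not a measured binding site.

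Nr4a3 read 99.8, 75.2, 69.1 and 152 on wild type arrays, 16.1 to 32.8 on ad libitum arrays, 17.5 to 44.0 on calorie restricted arrays and 35.3 to 102 on leptin treated arrays. Its pooled difference was -1.29 (SE 0.26, limma adjusted p = 0.0290), and its second probe set gave 0.09. In the list of 23 tested immediate early genes 2 were called, both lower (beside 0.397% of all genes), with a list median of 0.01. The other was Klf10, a TGF beta responsive transcription factor, at -0.61. Nfkbiz, an inducible nuclear modulator of NF-kappa B, was at -0.72, -0.65 and -0.33 in the 3 groups and was called lower pooled. Hsp90aa1, the inducible cytosolic chaperone, was at -0.47 and was the 1 called of 18 heat shock and chaperone genes, beside 0.711% of all genes.

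Called genes of the MHC class II and macrophage marker lists were lower in the average, with values near wild type in leptin treated ventricle. In whole tissue, fewer cells of a type and less RNA per cell cannot be told apart. Of 8 tested MHC class II genes 3 were called, all lower (37.5% beside 0.397% of all genes), and the list median was -0.53, at -0.46, -1.31 and 0.08 in ad libitum, calorie restricted and leptin treated ventricle. H2-Aa, a class II chain, read 734, 1008, 783 and 1354 on wild type arrays, 648, 325, 417 and 467 on ad libitum arrays, 104, 182, 115, 86.9 and 101 on calorie restricted arrays and 1077, 1152, 1078, 690 and 1139 on leptin treated arrays. Calorie restricted and ad libitum arrays were all below wild type and leptin treated arrays overlapped it. Its pooled difference was -1.32 (SE 0.20, limma adjusted p = 0.00614), and those of Cd74, the class II invariant chain, and H2-Eb1 were -1.09 and -0.89. The summed signal of the 9 class II genes on the array was 2249 to 4006 in wild type, 1289 to 2011 under free feeding, 621 to 1066 in calorie restricted and 2109 to 3301 in leptin treated ventricle.

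All 19 tested macrophage markers had a negative pooled difference, 2 were called lower (beside 0.397% of all genes), and the median was -0.42, at -0.43, -0.82 and -0.03 by group. The called members were Ms4a6d at -0.81 and Csf1r, a growth factor receptor of macrophages, at -0.48. Csf1r averaged 1037 ± 169 (SD, n = 4) in wild type, 763 ± 54.1 (n = 4) under free feeding, 575 ± 67.3 (n = 5) in calorie restricted and 912 ± 98.2 (n = 5) in leptin treated ventricle. The pan-macrophage gene Cd68 was at -0.05. The summed signal of the 20 markers on the array was 5524 to 9392 in wild type, 5053 to 6282 under free feeding, 3563 to 4989 in calorie restricted and 5938 to 8130 in leptin treated hearts. Of 26 tested interferon responsive genes 1 was called (beside 0.397% lower of all genes), Rsad2, an antiviral enzyme, at -0.63, with -0.49, -1.46 and 0.06 by group, and the list median was -0.28. The median of 14 MHC class I genes was -0.13, none was called by limma and 4 had an unadjusted p under 0.05, beside 14.2%. Further called genes with known roles in immune cells, picked out after their values were seen, were the complement C3a receptor C3ar1 (-0.58), the leukotriene enzyme Alox5 (-0.66), the interferon-inducible Mndal (-0.57) and AW112010 (-0.53), the lysophosphatidic acid receptor Lpar6 (-0.53), Rgs19 (-0.53), and St8sia4, a sialyltransferase (-0.55), whose other probe set was 0.95 higher and whose difference was 0.20 with the mean of all its probe sets. Alox5 read 57.6 to 104 on leptin treated arrays, all below its wild type arrays at 105 to 139. The leptin treated arrays of the other genes just listed overlapped wild type. Without the calorie restricted group the list medians were -0.31 for class II, -0.23 for macrophage and -0.09 for interferon genes.

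**Figure D4:**
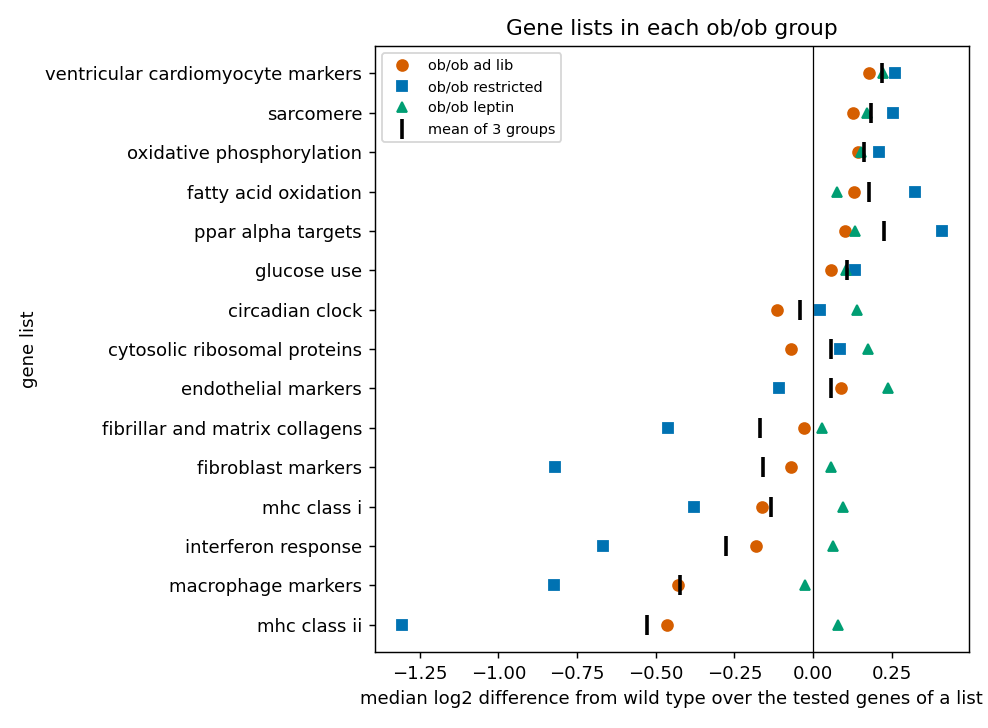
Median log2 difference from wild type (x axis) over the tested genes of 15 lists in each ob/ob group, with a bar at the median for the mean of the 3 groups. Class II, macrophage and interferon genes lie lowest in calorie restricted ventricle (-1.31, -0.82 and -0.67) and within 0.1 of 0 in leptin treated ventricle, whereas oxidative phosphorylation lies at 0.14, 0.21 and 0.15.

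In a list of 36 tested genes, collagen chains and other matrix-related genes such as Fn1, Sparc, Mmp2 and Timp2, none was called by limma. An unadjusted p under 0.05 was found for 9, all 9 lower, beside 14.2% of all genes in either direction. The list median was -0.17, at -0.03, -0.46 and 0.03 by group, and 0.02 without the calorie restricted group. Pi16, a secreted peptidase inhibitor known from fibroblasts, read 409, 556, 286 and 672 on wild type arrays, 156 to 255 on ad libitum arrays, 70.8 to 107 on calorie restricted arrays and 146 to 375 on leptin treated arrays. A single leptin treated array overlapped wild type, and the pooled difference was -1.53 (SE 0.22, adjusted p = 0.00488 in limma) with -1.11 in ad libitum and -2.47 in calorie restricted ventricle. Aplnr, the apelin receptor of endothelial cells, was 35.0 ± 6.81 (SD, n = 5) in calorie restricted, 271 ± 115 (n = 4) in ad libitum, 509 ± 84.2 (n = 5) in leptin treated and 392 ± 117 (n = 4) in wild type ventricle. Its pooled difference was -1.15 and became -0.08 without the calorie restricted group. Aplnr was the 1 called of 16 endothelial markers (beside 0.711% of all genes), whose median was 0.06. Serpinh1, the collagen chaperone, was likewise at -0.06, -1.32 and -0.13, and Nrep at -0.69, -2.11 and -0.22. Vcan (versican), Sema3c (a guidance molecule) and Aebp1 were lower in each group, at -0.53, -1.27 and -0.54, at -0.46, -0.90 and -0.70, and at -0.41, -0.67 and -0.35. Cpxm2 was at -1.03, Thy1 at -0.45, Pcsk6, a proprotein convertase, at -0.50 and Itgav, an integrin chain, at -0.30 with another probe set at 0.63. The median of 13 fibroblast markers was -0.16, with none called by limma and 6 at an unadjusted p under 0.05 (beside 14.2%), and it was 0.00 without the calorie restricted group. Spock2, a matrix proteoglycan, was 0.88 higher and was called in 9 of the 18 fits that left out 1 array.

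Markers of load showed no call. The fetal actin Acta1 stood at -1.20, -1.79 and -0.85 in ad libitum, calorie restricted and leptin treated ventricle, with a pooled difference of -1.28 (SE 0.32) and a limma adjusted p of 0.0665. The natriuretic peptide gene Nppb was at 0.14, -1.86 and -0.25, and Myh7, the slow myosin, at -0.51, -0.48 and 0.75. Of 22 circadian clock genes limma called none and 3 had an unadjusted p under 0.05, beside 14.2% of all genes. Dbp, an output gene of the clock, differed from wild type by -1.20, -0.53 and 1.01 and Arntl, a core activator, by 0.65, -0.27 and -0.95, so that both were near wild type in the average (-0.24 and -0.19). Per1, a light-responsive repressor of the clock, stood at 0.65 pooled, with 0.61, 0.81 and 0.54, with a limma adjusted p of 0.0792. Socs3, a feedback inhibitor induced by leptin and other cytokines, was at -0.68 with -0.73, -0.78 and -0.53 by group and an adjusted p of 0.0917 in limma, and Lepr, the leptin receptor, at 0.35. None of the 14 tested genes of leptin receptor signalling was called by limma and 5 had an unadjusted p under 0.05, beside 14.2%.

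Markers of blood had low values on part of the ob/ob arrays. All 3 tested erythroid genes had negative pooled differences with an unadjusted p under 0.05, beside 14.2% of all genes in either direction. None was called by limma, and the median was -1.08. Alas2, which makes heme in red cell precursors, was 184 to 235 in wild type, 142 to 202 under free feeding, 24.9 to 241 in calorie restricted and 43.7 to 135 in leptin treated ventricle. The part of blood content in the other differences was not tested. With the mean atrial marker level as a covariate the pooled contrast called 108 genes. Without calorie restricted replicates 2 and 3, which also leaves that group with fewer arrays, it called 48.

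The remaining called genes have no list of their own. Higher were Zfp119a (1.09), Ttc12 (0.76), the noncoding RNA Neat1 (0.80, with another probe set at -0.22), 2310009B15Rik (1.10), Entpd5 (0.39), Cdc42ep4 (0.50), Trnp1 (0.51), Tmem63b (0.32), Rab11b (0.30), Eif2b1 (0.39) and Rabgap1l (0.42). Lower were Ung, which removes uracil from DNA (-0.64), the cap-binding protein gene Ncbp2 (-0.50), Rab3il1 (-0.62), Fgd4 (-0.51), Sh3d19 (-0.47), Asap2 (-0.45), Sh3bgr (-0.44), Nrbf2 (-0.44), Tspan13 (-0.43), Dcakd (-0.42), Rapgef2 (-0.34) and Nap1l1 (-0.32). Of the 95 genes, 51 had a further probe set above the signal filter. For 37 of them all further sets pointed the same way, and for 14 at least 1 pointed the other way, among them Fgd4, Asap2, Sh3d19, Rab3il1 and Sh3bgr, whose single other set was at or above 0.

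The ob mutation lies in Lep on chromosome 6. In RefSeq gene order, of the 50 tested genes on each side of Lep 1 was called, Tac1, the substance P precursor. Tac1 lay 47 genes away and was at -0.70 (SE 0.15, limma adjusted p = 0.0387), with its other probe set at -0.12. A total of 17 of these 100 genes had an unadjusted p under 0.05 (17.0%, beside 14.2% of all genes), their median was -0.01, and none of the nearest 5 on either side had one. Chromosome 6 carried 5 of the 95 called genes (5.26%) and 5.20% of the genes tested.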

How the data were processed

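RNA from ventricular myocardium of 18 mice was hybridised to Affymetrix arrays. The authors deposited linear signal intensities from MAS5 (per the submitters' processing notes), whose version is not given in the sources used here. Checked on the deposited table, every array has the same mean (100.001) after trimming 2% of probe sets at each end, so a change in total RNA is not visible in them.

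Of 45101 probe sets, 64 controls were left out. The platform annotation, which can be old, gave 34945 sets 1 symbol, 932 several and 9160 none. Of the sets with 1 symbol 34741 matched RefSeq (GRCm38.p6) by Entrez identifier and 0 symbols changed. The brightest set stood for each of 18193 genes, signals were taken as log2(intensity + 5.13), and 13359 genes with a mean of at least 4.36 (the 40th percentile) were tested. The test was limma 3.58.1 in R 4.3.3, with a coefficient per group over 18 arrays, two-sided, with Benjamini-Hochberg adjustment. P-values rest on the spread between mice, and the number of arrays limits the precision. The procedure was tested on simulated data.

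The comparison, gene lists and naming rule were chosen with earlier results of these data known. The rule named the 12 largest called changes each way, with unnamed cDNA clones passed over, and up to 12 called genes without overlap. It also named up to 6 called genes that differed most among ob/ob groups, up to 3 members per described list, 3 genes beside Lep and a fixed set. The other called genes were named after their values were seen so that all 95 are accounted for. Replicate numbers were not treated as pairs in the main fit.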

Additional observations from a re-analysis of the deposited data

Results flagged for a closer look

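In 34 genes each group of 4 or 5 arrays was screened for an array far from the rest with Dixon's test, and 11 of 136 groups held one, where chance gives about 5%. On wild type replicate 4 the signal stood apart for Cyp26b1 (40.8), Ttc12 (67.3), Slc19a2 (232) and St8sia4 (216). On calorie restricted replicate 1 it stood apart for Gsta4 (1015), Dnajc9 (128) and Rsad2 (197), on calorie restricted replicate 4 for Pi16 (107) and Ell2 (285), on calorie restricted replicate 5 for Aldh1a2 (4.15, under the added constant) and on leptin treated replicate 4 for H2-Aa (690).

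For 22 of these genes the difference from wild type was not the same in the 3 ob/ob groups, by the F test in limma, which called 12% of all genes tested. Up to 6 of the 34 genes had been named because they differed most by this test, so the count is not independent of the choice. Among the genes higher in ob/ob, its adjusted p was 5.12e-04 for Kcnk1, 3.48e-05 for Cyp2d22, 0.00627 for Gsta4, 0.00192 for Spock2, 0.00307 for Neat1, 5.26e-04 for Sult1a1 and 0.0434 for Dnajc9. Among the lower genes of immune function, limma gave an adjusted p of 3.28e-06 for H2-Aa, 7.39e-05 for Cd74, 5.42e-05 for H2-Eb1, 0.00142 for Ms4a6d, 3.28e-06 for Rsad2 and 4.52e-06 for St8sia4. Among the other lower genes, limma gave an adjusted p of 2.05e-04 for Aldh1a2, 0.00133 for Pi16, 0.0423 for Nr4a3, 3.23e-07 for Aplnr, 4.24e-04 for Cpxm2, 4.91e-06 for Nrep, 0.00188 for Ppargc1a, 4.42e-04 for Rilpl1 and 4.91e-06 for Serpinh1.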

How the results depend on the processing

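The number of genes called between pooled ob/ob and wild type ventricle moved from 95 to 148 with a pseudocount of 32, 44 with no filter on low signal, 178 with a filter at the 60th percentile, 150 with quantile normalization, 33 with median centring, 57 with the mean of all probe sets and 213 with a trended and robust prior. It was 2 with 1 mean per genotype, 48 without calorie restricted replicates 2 and 3, 4 without the calorie restricted group and 408 without the leptin treated group. Leaving out 1 array gave 25 to 121, the lowest without wild type replicate 1. The split of higher to lower calls was 42 to 53, and 76 to 74 after quantile normalization or 12 to 21 after median centring. The cause was not tested.

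The called genes that also differed among ob/ob groups numbered 63, and in the same order 99 (pseudocount 32), 29 (no filter), 116 (60th percentile), 97 (quantile), 20 (median centring), 38 (mean of sets), 138 (trended prior), 30 without calorie restricted replicates 2 and 3, 2 without the calorie restricted group and 128 without the leptin treated group, with 19 to 74 when 1 array was left out. The 1602 genes that differed among ob/ob groups became 934 with median centring, 872 with an atrial covariate, 823 without calorie restricted replicates 2 and 3, 73 without the calorie restricted group and 564 without the leptin treated group.

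Against wild type alone, the 40 genes of the ad libitum group became 13 with no filter, 6 with median centring, 78 with a trended prior, 18 with an atrial covariate, 18 without calorie restricted replicates 2 and 3, and 5 to 45 when 1 array was left out. The 1504 genes of the calorie restricted group became 822 with median centring and 891 without its replicates 2 and 3. For the leptin treated group the count of 1 became 2 with a pseudocount of 32, with the 60th percentile or without calorie restricted replicates 2 and 3, 3 with a trended prior, and 1 to 5 when 1 array was left out. The 42 genes without overlap became 27 with median centring, and fewer arrays by construction gave more, 44 to 144 without 1 array and 95, 96 and 391 without the ad libitum, calorie restricted and leptin treated group.

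Same-numbered arrays did not deviate together (1 of 25 pairs correlated over 0.1). This gave no sign that the numbers pair the samples, but correlations of so few arrays cannot exclude it. With the replicate block 43 genes were called, 30 of them also among ob/ob groups, and 11 in the ad libitum group. Over the called genes and all settings, 2221 values kept their direction and call, 1000 kept their direction and lost the call, and 1 reversed, St8sia4 at 0.20 with the mean of all probe sets. Dim genes near the added constant, such as Ugt3a2 and Zfp119a, and the 4 wild type arrays limit what can be called.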
